A study of Homo sapiens with 6 samples.

Results

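Aminoacyl-tRNA synthetases are the enzymes that join each amino acid to its tRNA, and the genes described here are those that the annotation in the deposited gene table assigns to the KEGG pathway of aminoacyl-tRNA biosynthesis. The rule took every gene whose KEGG column lists that pathway and left out the mitochondrial chromosome, and it found 44 of the 33900 genes in the table. By their known site of action, 23 are cytosolic and 21 are mitochondrial. The split follows the gene symbols, in which a final 2 marks the mitochondrial enzyme, with MTFMT, GATB, GATC and QRSL1 added to that side. TARS3, also known as TARSL2, was counted as cytosolic. RNA sequencing compared 3 samples of LX-2 cells given rhSema3C (recombinant human Sema3C, 300 ng/ml) with 3 samples given PBS, each for 48 h. Both groups come from 1 wild-type line of hepatic stellate cells from humans, LX-2, and the addition is the only recorded difference between them. Serum-containing DMEM is given as the culture medium of this line. The paper does not state the medium during this treatment, or whether the samples shared batches of extraction, library preparation or sequencing. The labels number the replicates as biological ones but do not say whether each was a separate culture, so p-values measure the spread between these samples.

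As background, a synthetase first activates its amino acid with ATP and then transfers it to the end of the matching tRNA, which carries it to the ribosome. Human cells hold separate sets for the cytosol and for mitochondria, nearly all encoded by different nuclear genes. GARS1 and KARS1 are exceptions, since each gives both the cytosolic and the mitochondrial enzyme. In the cytosol, several synthetases sit with scaffold proteins in one large multi-synthetase complex. When tRNAs are left uncharged, the kinase GCN2 lowers general translation and raises the translation of ATF4, a transcription factor for which several cytosolic synthetase genes are known targets.

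Total counts on genes ran from 68267808 to 89245585 per sample, and the lowest count of any member in any sample was 220. Genes of the mitochondrial chromosome took between 4.75% and 5.42% of the counts in the PBS samples and between 3.73% and 3.93% in the rhSema3C samples. Of 9 stellate or fibroblast markers, VIM and COL1A1 were abundant, whereas LRAT and DES stayed at or below 0.139 CPM (counts scaled by the effective library size after TMM normalisation) and COL1A2 between 0.653 and 1.69. The summed CPM of that list was 7066 to 7406 with PBS and 4950 to 5279 with rhSema3C, most of it VIM. Within it, COL1A1 was 850 to 978 CPM with PBS and 516 to 556 with rhSema3C, and COL3A1 was 158 to 167 and 122 to 133. TAGLN was 369 to 429 CPM with PBS and 59.4 to 64.3 with rhSema3C. ACTA2 was 42.3 to 47.1 and 28.9 to 32.4, and PDGFRB overlapped at 32.9 to 39.7 and 36.1 to 39.7. The hepatocyte markers ALB and APOA1 did not exceed 0.129 CPM, and TTR was not among the genes analysed here. SERPINA1, the remaining hepatocyte marker, was 13.5 to 16.0 with PBS and 17.1 to 20.2 with rhSema3C. The summed endothelial markers were 1.53 to 1.72 CPM with PBS and 5.95 to 8.42 with rhSema3C, nearly all of it VWF. The leukocyte sum was 206 to 226 and 136 to 149, nearly all of it CD68, and the cholangiocyte sum was 9.93 to 15.5 and 12.4 to 14.1. The part of these shifts in the results was not tested. In bulk RNA, fewer cells of a kind and less RNA per cell cannot be told apart.

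The cytosolic members rose for the most part with rhSema3C, whereas the mitochondrial members were divided. Among the 23 cytosolic genes, 17 were higher, 4 were lower and 2 were not called, with edgeR's quasi-likelihood test and a threshold of 0.05 on the adjusted p. In the mitochondrial group, 6 of 21 were higher, 10 were lower and 5 were not called. All 44 passed the expression filter. Over the 14178 genes tested, 31.7% were higher and 30.6% were lower by the same rule, 62.3% in either direction, so a call by itself was common. The median log2 fold change was 0.73 for the cytosolic group and -0.18 for the mitochondrial group, beside 0.024 for all genes tested. Both medians are descriptions without a test. Summed over the cytosolic members, the level was 3190 ± 44.8 CPM with PBS and 5229 ± 37.1 CPM with rhSema3C (SD, n = 3 each), a ratio of 1.64. Summed over the mitochondrial members, it went from 807 ± 20.3 to 736 ± 16.3 CPM, a ratio of 0.912. The scaling between samples mattered most for the small differences. With FPKM rescaled to TPM, which moved the median of all genes tested to 0.23, the mitochondrial median was 0.062, or -0.16 relative to all genes. Without PBS replicate 1 it was -0.040, and without PBS replicate 2 it was -0.12. The balance of mitochondrial calls also depended on scaling, with 7 higher and 6 lower with library size alone, and 10 higher and 5 lower with TPM.

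**Figure D1:**
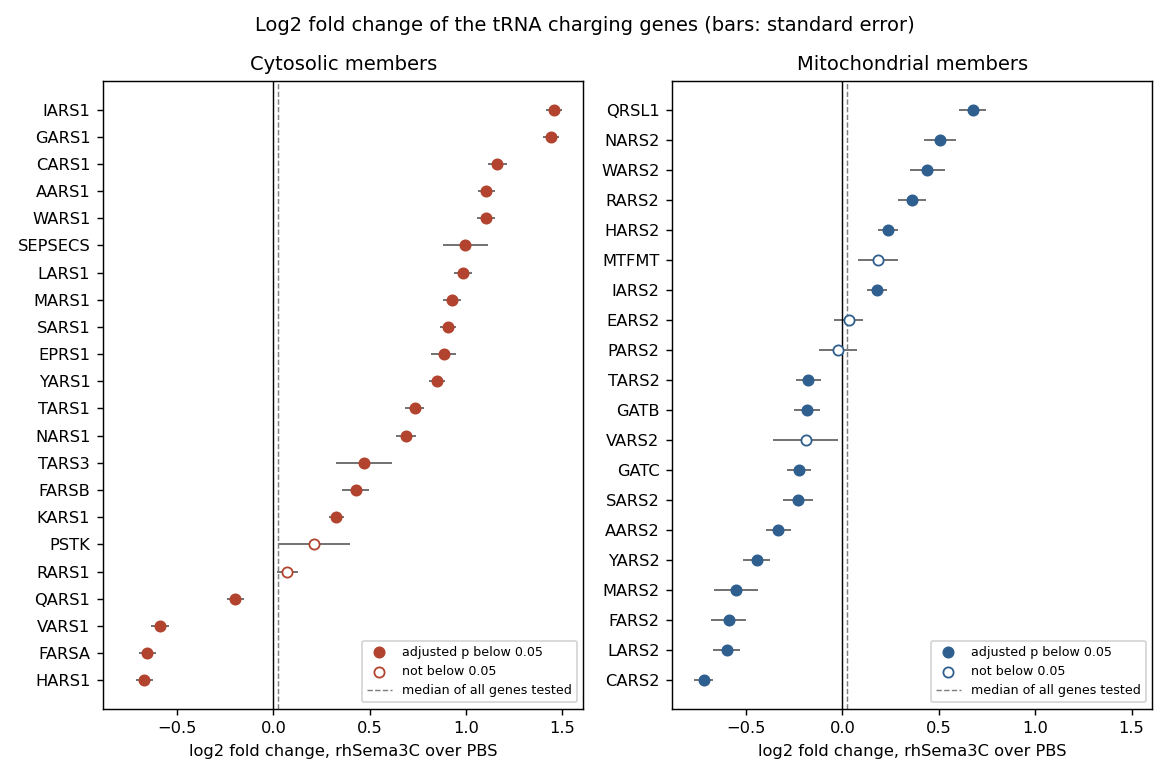
Fitted log2 fold change of rhSema3C over PBS (x axis) for 22 of the cytosolic (left) and 20 of the mitochondrial members (right), with bars for the standard error and open circles for genes not called at an adjusted p of 0.05. Cytosolic members run from -0.67 for HARS1 to 1.45 for IARS1 and mitochondrial members from -0.72 for CARS2 to 0.68 for QRSL1, and the dashed line marks the median of all genes tested at 0.024.

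IARS1, GARS1, CARS1, AARS1 and WARS1 each differed by more than 2-fold, and no member fell by that much. Among all genes tested, 3.42% rose and 2.12% fell past this fold with an unadjusted p below 0.05. IARS1, the cytosolic isoleucyl-tRNA synthetase (ENSG00000196305, chromosome 9 from 92210207 to 92293700 on GRCh38), measured 255, 241 and 253 CPM in PBS replicates 1, 2 and 3. With rhSema3C it measured 674, 693 and 684 CPM, far above every PBS sample. The edgeR estimate was 1.45 on the log2 scale with a standard error of 0.04 (adjusted p = 8.9e-10), which ranked 154 among all genes tested. GARS1, which charges glycine in both compartments (ENSG00000106105, chromosome 7 from 30580533 to 30634033), went from 112, 109 and 111 CPM to 302, 309 and 289 CPM. Its log2 fold change was 1.44 (standard error 0.04), within 1 standard error of that of IARS1.

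CARS1, the cysteinyl-tRNA synthetase of the cytosol (chromosome 11 from 3000922 to 3057613), measured 72.1, 71.6 and 67.8 CPM with PBS and 168, 150.2 and 155 CPM with rhSema3C. AARS1, which charges alanine (chromosome 16 from 70251983 to 70289707), measured 251, 268 and 259 CPM with PBS and 577, 541 and 557 CPM with rhSema3C. WARS1, the tryptophanyl-tRNA synthetase (chromosome 14 from 100333790 to 100376343), measured 156, 157 and 146 CPM with PBS and 342, 318 and 328 CPM with rhSema3C. For all 3 genes the groups were widely separated. The log2 fold changes were 1.16, 1.11 and 1.10, with standard errors of 0.05, 0.04 and 0.05. In 37 of the 44 members the groups did not overlap in CPM, with rhSema3C above in 23 and below in 14. Over all genes tested, 67.8% did not overlap, with rhSema3C above in 34.6% and below in 33.3%.

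**Figure D2:**
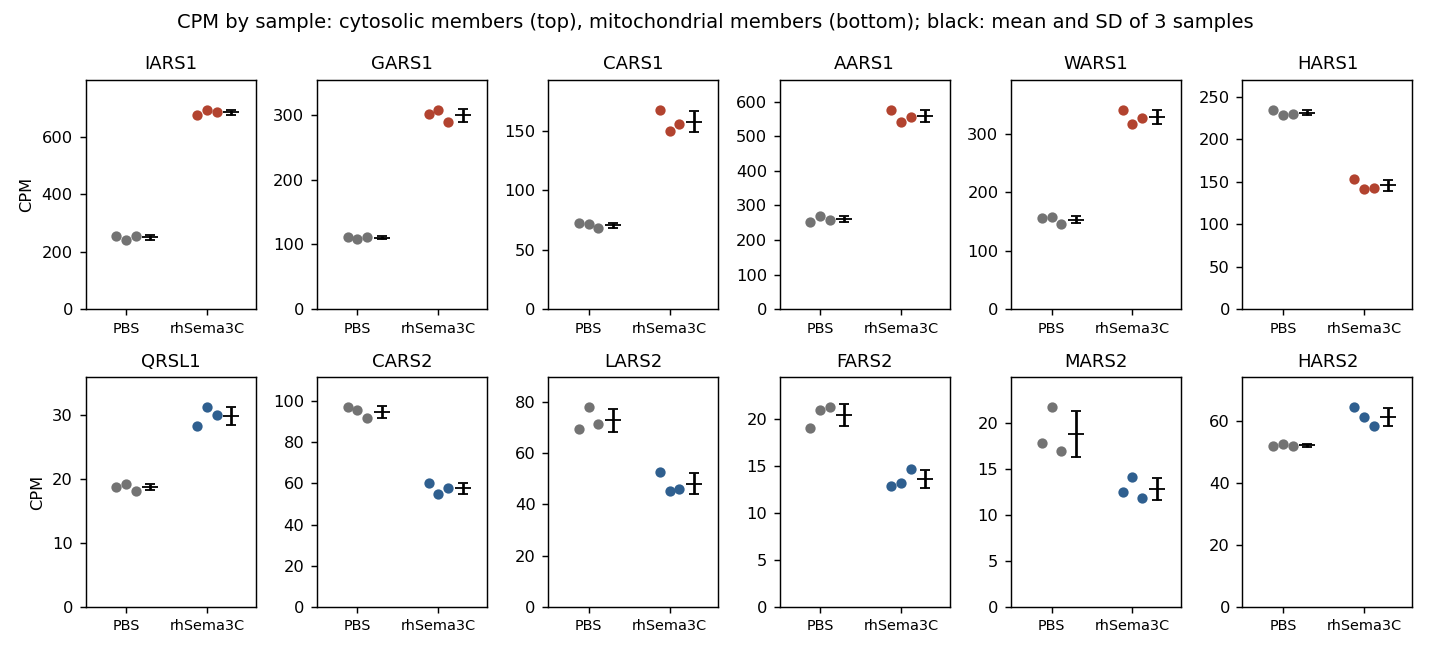
CPM (y axis, from 0) in each sample for 6 cytosolic members (top row) and 6 mitochondrial members (bottom row), PBS in grey and rhSema3C in colour, with the mean and SD of 3 samples in black. In each of the 12 genes the PBS and rhSema3C samples do not overlap, and HARS1, CARS2, LARS2, FARS2 and MARS2 are the ones with lower values after rhSema3C.

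A second tier of cytosolic synthetases rose by up to 1.98-fold. LARS1, for leucine, had PBS values of 90.1, 84.7 and 87.2 CPM and rhSema3C values of 164, 183 and 171 CPM, with no overlap. MARS1, for methionine, had PBS values of 239, 252 and 229 CPM and rhSema3C values of 467, 444 and 458 CPM, again apart in every sample. Their log2 fold changes were 0.98 and 0.93, both with a standard error of 0.05. MARS1 overlaps DDIT3 on the other strand over 982 bases. DDIT3 held 15.4% as many counts on average and rose by 1.78 on the log2 scale, and the part of shared reads in the MARS1 value was not tested. SARS1 (serine), EPRS1 (glutamate and proline), YARS1 (tyrosine), TARS1 (threonine) and NARS1 (asparagine) rose with log2 fold changes of 0.91, 0.88, 0.85, 0.73 and 0.69. EPRS1 is the single gene whose protein carries 2 synthetases fused in one chain. Smaller rises were found for TARS3, the second threonyl-tRNA synthetase (0.47), FARSB, the beta subunit for phenylalanine (0.43), and KARS1, for lysine (0.33). TARS3 was called with an adjusted p of 0.015 by edgeR, and without rhSema3C replicate 2 it no longer passed (adjusted p = 0.069, log2 fold change 0.36).

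Against this general rise, HARS1, FARSA, VARS1 and QARS1 were lower with rhSema3C and RARS1 was not called. HARS1, for histidine, measured 235, 229 and 230.1 CPM with PBS and 153, 141 and 143 CPM with rhSema3C. FARSA, the alpha subunit of the phenylalanyl enzyme, measured 117, 125 and 117 CPM with PBS and 78.7, 74.3 and 75.7 CPM with rhSema3C. VARS1, for valine, measured 155, 163 and 154 CPM with PBS and 109.6, 102 and 102 CPM with rhSema3C. All 3 genes were lower in every treated sample, by -0.67, -0.65 and -0.59 on the log2 scale, with standard errors of 0.04, 0.05 and 0.05. FARSA and FARSB encode the different chains of one enzyme, and they were called in opposite directions. QARS1, for glutamine, was lower by -0.20 on the log2 scale (edgeR, adjusted p = 0.0022). With library size alone it no longer passed (-0.091), and with TPM scaling it was at 0.028. RARS1, for arginine, had PBS values of 98.7, 88.1 and 96.6 CPM and overlapping rhSema3C values of 95.2, 104 and 99.3 CPM. The difference was 0.073 on the log2 scale with a standard error of 0.05 (edgeR, adjusted p = 0.25), and it was called higher under 5 of the other settings, with values between 0.17 and 0.30.

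Promoter sequences from RefSeq (GRCh38.p14, 250 bases before and 50 after each listed start site) were at hand for 34 of the 44 members and for 27305 genes in all. They were searched on both strands for TGATGNAA, the core of the element that ATF4 binds together with C/EBP factors. The motif was chosen with the rise of ATF4 target genes in these data known, so its count is a description. It was found for 8 of the 34 members, beside 4.46% of all genes in the promoter table. Among the 9951 genes tested that had a promoter sequence, 2.65% held it. Of the 12 rising cytosolic members with a promoter sequence, 7 held it, and 6 of them held the letters TGATGCAA, which 1.08% of all genes in the table hold. Among the 3401 genes tested and called higher that had a sequence, 3.44% held the motif, and of 14 other ATF4 target genes with a sequence, 4 did. None of the 3 falling cytosolic members with a sequence (HARS1, FARSA and QARS1) held it, nor did any of the 6 rising mitochondrial members. At a share of 2.65%, so few genes would mostly hold no match, so these absences carry no contrast. Of 9 falling mitochondrial members with a sequence, YARS2 held it. The windows below show the match in capitals with 11 bases on each side, in the direction of the gene, so that TTGCATCA is the motif read from the other strand. The positions of the match count from the start site listed by RefSeq, with negative numbers before it.
IARS1, chr9:92293692-92293721, minus strand, bases -13 to -6: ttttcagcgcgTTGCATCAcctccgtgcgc
GARS1, chr7:30594834-30594863, plus strand, bases -33 to -26: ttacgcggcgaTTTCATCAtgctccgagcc
CARS1, chr11:3057407-3057436, minus strand, bases -2 to 6: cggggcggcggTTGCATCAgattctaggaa
AARS1, chr16:70289675-70289704, minus strand, bases -187 to -180: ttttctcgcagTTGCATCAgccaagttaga
MARS1, chr12:57488053-57488082, plus strand, bases -4 to 4: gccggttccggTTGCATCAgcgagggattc
TARS1, chr5:33440956-33440985, plus strand, bases 3 to 10: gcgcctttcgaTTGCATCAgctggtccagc
NARS1, chr18:57621804-57621833, minus strand, bases 15 to 22: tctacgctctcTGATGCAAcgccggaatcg
YARS2, chr12:32756076-32756105, minus strand, bases -197 to -190: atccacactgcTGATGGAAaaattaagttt

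IARS1, CARS1, AARS1, MARS1 and TARS1 thus share the same 8 letters in the same orientation, NARS1 has them in the opposite orientation, and GARS1 differs by 1 letter at the free position. In 5 of these 7 rising genes the match lay within 22 bases of the listed start site. That site is not always the first base of the gene as deposited. Apart from that of IARS1, the windows of these rising genes lie wholly inside the deposited gene coordinates. Those coordinates begin at 30580533 for GARS1 and at 57475445 for MARS1, so the positions depend on the start site used. WARS1, SARS1, EPRS1, FARSB and KARS1 rose without a match in their window. A match is a run of letters, not a measured binding site, and LARS1, TARS3, VARS1, YARS1, AARS2, VARS2, MTFMT and SEPSECS were among the 10 members without a sequence in the promoter table, which could not be searched.

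Among the mitochondrial members, the largest differences were in CARS2, QRSL1, LARS2, FARS2 and MARS2. CARS2, the cysteinyl-tRNA synthetase of mitochondria, measured 97, 95.8 and 91.6 CPM with PBS and 60.2, 54.6 and 57.8 CPM with rhSema3C. LARS2, for leucine, measured 69.4, 77.9 and 71.3 CPM with PBS and 52.8, 45.2 and 46.1 CPM with rhSema3C. Both were lower in every treated sample, with log2 fold changes of -0.72 (standard error 0.05) and -0.60 (standard error 0.07). FARS2, for phenylalanine, measured 19.1, 21 and 21.3 CPM with PBS and 12.9, 13.2 and 14.7 CPM with rhSema3C. MARS2, for methionine, measured 17.8, 21.7 and 17 CPM with PBS and 12.5, 14.2 and 11.8 CPM with rhSema3C. These low genes also separated fully, with log2 fold changes of -0.59 and -0.55 and larger standard errors of 0.09 and 0.11. YARS2 (tyrosine), AARS2 (alanine), SARS2 (serine) and TARS2 (threonine) fell by 0.44, 0.33, 0.23 and 0.18 on the log2 scale. SARS2 no longer passed without PBS replicate 1 (adjusted p = 0.072 from edgeR) or without rhSema3C replicate 2 or 3 (0.057 and 0.11). TARS2 no longer passed without PBS replicate 1 or 2 (0.058 and 0.11 from edgeR) or without rhSema3C replicate 2 or 3 (0.098 and 0.059), and with TPM scaling it was at 0.048. YARS2 overlaps DNM1L on the other strand over 18161 bases, which matters if the counting ignored strand.

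QRSL1, the A subunit of the amidotransferase that makes mitochondrial glutaminyl-tRNA, rose from 18.8, 19.2 and 18.2 CPM to 28.4, 31.2 and 30.1 CPM. Its log2 fold change was 0.68 (standard error 0.07). GATB and GATC, the other subunits of the same enzyme, were lower by -0.18 and -0.22 on the log2 scale (edgeR, adjusted p = 0.035 and 0.0075). With TPM scaling they were at 0.043 and 0.0051, and GATB no longer passed without PBS replicate 2 (adjusted p = 0.14 from edgeR) or without rhSema3C replicate 2 or 3 (0.073 and 0.066). GATC overlaps a gene on the other strand over 2078 bases, which held 170% as many counts on average. The part of shared reads in the GATC value was not tested. NARS2 (asparagine), WARS2 (tryptophan), RARS2 (arginine), HARS2 (histidine) and IARS2 (isoleucine) rose by 0.51, 0.44, 0.36, 0.24 and 0.18 on the log2 scale. The genes not called included MTFMT, which formylates the initiator methionyl-tRNA, EARS2, PARS2 and VARS2. VARS2, for valine, ranged from 18.1 to 31.8 CPM among the PBS samples alone. Another gene on the same strand covers its whole length of 12255 bases and held 211% as many counts on average. The part of shared reads in the VARS2 value was not tested. Without PBS replicate 1, which held the highest value of VARS2, its log2 fold change moved from -0.19 to 0.053. Without the same sample MTFMT passed as higher (0.28, adjusted p = 0.046 from edgeR).

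For 17 amino acids both compartments have a synthetase of their own, which gives 19 pairs because phenylalanine and threonine have 2 cytosolic genes each and EPRS1 stands for glutamate and for proline. In 15 of the 19 pairs the cytosolic gene had the higher log2 fold change. In 9 pairs the cytosolic gene rose and its mitochondrial partner fell, in 3 both rose, in 1 both fell and in 1 the cytosolic gene fell while its partner rose. The remaining 5 pairs had a gene that was not called. The widest pair was CARS1 with CARS2, whose log2 ratio of CPM was -0.43, -0.42 and -0.43 in the PBS samples and 1.48, 1.46 and 1.43 in the rhSema3C samples. With PBS the mitochondrial gene thus had the higher CPM, and with rhSema3C the cytosolic gene did. The differences in log2 fold change were 1.59 for leucine, 1.48 for methionine, 1.44 for alanine, 1.29 for tyrosine and 1.28 for isoleucine. For asparagine, NARS1 and NARS2 rose by similar amounts (0.69 and 0.51), and their per-sample ratios overlapped between the groups. Since the pairs share libraries, these counts carry no test.

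Histidine went the other way. HARS1 and HARS2 lie head to head on chromosome 5, HARS1 on the minus strand from 140673035 to 140691537 and HARS2 on the plus strand from 140691430 to 140699291, so that the genes share 108 bases. HARS2 measured 51.8, 52.7 and 51.9 CPM with PBS and 64.4, 61.2 and 58.4 CPM with rhSema3C, above every PBS sample, while HARS1 fell. The log2 ratio of HARS1 to HARS2 went from 2.18, 2.12 and 2.15 with PBS to 1.25, 1.20 and 1.29 with rhSema3C. For arginine, where RARS1 was not called, the ratio of RARS1 to RARS2 was also lower in every treated sample. It went from 1.45, 1.46 and 1.62 to 1.24, 1.21 and 1.22. For HARS2 the difference was 0.24 on the log2 scale with a standard error of 0.05 (edgeR, adjusted p = 0.0022). HARS2 also overlaps ZMAT2 over 612 bases on its own strand, and HARS1 overlaps WDR55 over 1090 bases on the other, so part of these counts depends on how shared reads were assigned.

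Synthetase genes inside and outside the multi-synthetase complex both rose for the most part. Of the 8 inside it, 6 rose, 1 fell (QARS1) and 1 was not called (RARS1), with a median of 0.78. Of the 13 cytosolic synthetase genes outside it, 10 rose and 3 fell, with a median of 0.73. The 3 scaffold proteins were also divided. AIMP1 and EEF1E1 rose by 0.35 and 0.39 on the log2 scale, and AIMP2 fell by 0.24 (edgeR, adjusted p = 0.014), a call lost without PBS replicate 2 or rhSema3C replicate 3, with library size alone, with limma on FPKM or TPM, and at a mean FPKM of at least 5. By catalytic class, 6 of 9 cytosolic class I genes and 9 of 11 class II genes rose, EPRS1 being left out as a fusion of both classes. The counts by complex and by class stand beside 31.7% higher and 30.6% lower over all genes tested. The enzymes that make selenocysteine on its tRNA were both scarce. SEPSECS, the selenocysteine synthase, went from 5.35, 5.54 and 5.69 CPM to 9.90, 10.9 and 12.3 CPM, a log2 fold change of 1.00 (standard error 0.12), just short of a doubling. PSTK, the kinase that acts before it, had PBS values of 4.50, 4.61 and 3.33 CPM and overlapping rhSema3C values of 3.80, 5.43 and 5.17 CPM.

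Levels were compared between genes as CPM per kilobase of the principal transcript in GENCODE 29, since the deposited FPKM did not follow the transcript lengths of that release. For 25 of the 44 members the count and FPKM together imply a length over 1.5 times that of the longest transcript there. The ratio reached 6.75 for GARS1, beside a median of 1.29 over all genes tested. Only 9 members have exactly the same coordinates in GENCODE 29, but 42 overlap their gene there on the same strand over at least 80% of either length. How the authors set gene lengths is not given. The median over the cytosolic synthetases was 49.6 CPM per kilobase with PBS and 69.2 with rhSema3C. Over the mitochondrial synthetases it was 12.2 and 10.3. SARS1 had the highest level of any member in both groups, at 125 ± 4.24 and 235 ± 2.46 CPM per kilobase (SD, n = 3). With PBS, HARS1 (94.8 ± 1.25) and QARS1 (91.3 ± 2.97) came next. With rhSema3C, AARS1 (161 ± 5.25), MARS1 (157 ± 3.97) and IARS1 (147 ± 2.09) followed SARS1, and HARS1 stood at 59.6 ± 2.65. CARS2 was the most abundant mitochondrial member in both groups, at 50.4 ± 1.5 and 30.6 ± 1.5 CPM per kilobase.

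**Figure D3:**
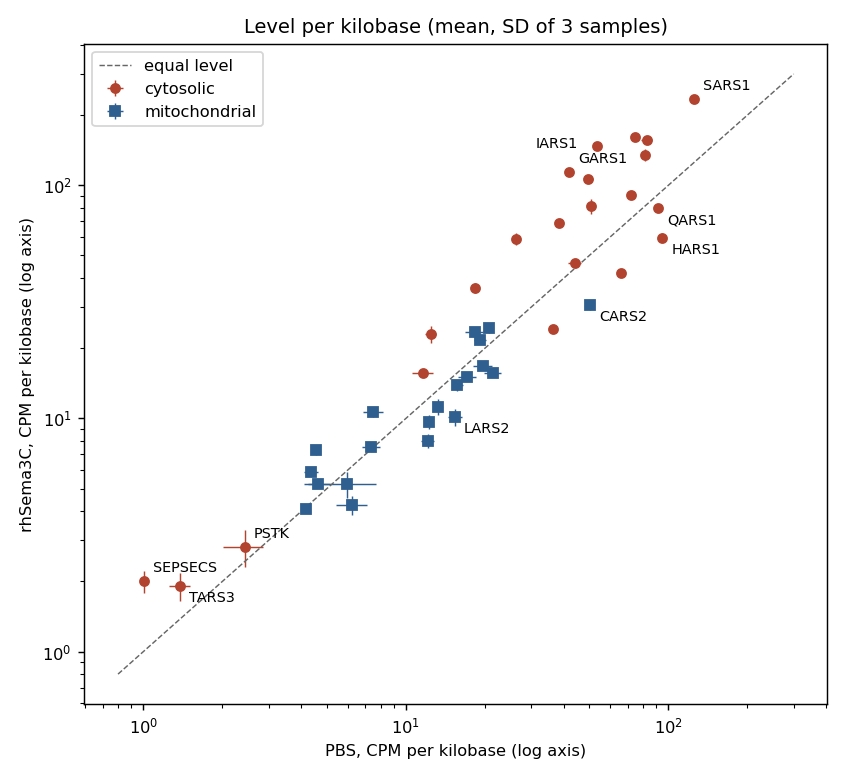
Mean level of 42 of the 44 members with PBS (x axis) and with rhSema3C (y axis), in CPM per kilobase on log axes, with bars for the SD of 3 samples and a dashed line of equal level. Most cytosolic genes (circles) lie above the line, with SARS1 highest at 235 after rhSema3C, and HARS1 (94.8 to 59.6) and CARS2 (50.4 to 30.6) lie below it.

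Genes that act next to the synthetases were described from lists chosen with earlier results of these data known, and their counts stand beside 31.7% higher and 30.6% lower over all genes tested. In the list of tRNA splicing and export, 4 of 9 genes were higher and 4 lower, with a median of 0.035. XPOT, which carries tRNAs out of the nucleus, led the list, from 128 ± 3.37 to 380.3 ± 12.1 CPM, or 1.57 on the log2 scale (standard error 0.04). TSEN34, a subunit of the tRNA splicing endonuclease, fell most in that list, by 0.64 on the log2 scale. Of 7 genes that sense uncharged tRNA or act on the same phosphorylation step, 3 were higher and 2 lower. ATF4 rose by 0.96 on the log2 scale and GCN1, the partner of GCN2, fell by 0.24. EIF2AK4, which encodes GCN2, was at 0.056 and not called. With library size alone, limma on FPKM or a mean FPKM of at least 5, 5 of these 7 genes were higher and 1 lower. With TPM, 5 were higher and 0 lower, so the calls for EIF2AK4 and GCN1 depended on the scaling. Of 16 other ATF4 target genes, 14 were higher and 1 was lower, with a median of 1.66, above the rise of any synthetase gene. ASNS, which makes asparagine, rose most (3.34), and ATF5, a related transcription factor, fell by 1.49. Of 11 mitochondrial translation factors, 7 were higher and 2 lower, with a median of 0.33. MTIF2, an initiation factor, rose most (0.60), and TUFM, which brings charged tRNAs to the mitochondrial ribosome, had the largest fall (-0.56), next to TSFM, its exchange factor (-0.53).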

How the data were processed

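For each of the 6 samples the authors deposited raw counts by gene and, beside them, FPKM. Their methods name Illumina NovaSeq sequencing and the Cufflinks package with cuffmerge. The aligner, the counting tool and its strand setting are not given in the sources used here. Of the 44 members, 30 overlap another gene of the table, 8 of them a gene with more counts. Those 8 are EARS2, GATC, HARS2, PSTK, SARS2, VARS2, WARS2 and YARS2. The coordinates lie on GRCh38.

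Counts were compared with edgeR's quasi-likelihood test after TMM normalisation, over the 14178 genes whose mean FPKM reached 0.5, with Benjamini-Hochberg adjustment over all of them. The fold threshold of 2 with a p below 0.05 follows the paper. The standard error was the log2 fold change divided by the root of the F statistic. An exact two-sided permutation test of 3 against 3 cannot give a p below 0.1. The design was written for counts and needed no change. The members and lists were chosen with earlier results of these data known. Every member could be named, and values per sample were given for the 5 largest changes in each compartment, their partners, members past 2-fold, HARS1 and HARS2, with others added after their values were seen. Alternatives covered scaling, DESeq2, limma, the pseudocount, the filter, a replicate block, chromosome MT and each sample left out. The counts of synthetases alone and without GARS1 and KARS1 were added after the data were seen. The procedure was tested on simulated data in which few genes changed, with as many raised as lowered. Such data cannot show whether the scaling holds where most genes are called, as here. Fits used edgeR 4.0.16, DESeq2 1.42.0 and limma 3.58.1 under R 4.3.3. No molecular identifiers were used, so counts are not counted molecules. Some genes are not reported here by name and are not plotted, but they remain in the counts.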

Additional observations from a re-analysis of the deposited data

How the results depend on the processing

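The counts of cytosolic members higher and lower stayed within 1.5 times of their values under all alternatives run, and 31 of the 44 members kept their sign and their side of the threshold in each fit. The other 13 changed with the scaling, the filter, the replicate block or a sample left out. The cytosolic median of 0.73 was 0.84 with library size alone, 0.83 with limma on log2(FPKM + 0.1), 0.96 on log2(TPM + 1) and 0.89 at a mean FPKM of at least 5 (20 members). Under these settings the mitochondrial median of -0.18 was -0.069, -0.055, 0.062 and -0.12 (11 members), and with limma on log2(FPKM + 1) it was -0.048. The number of mitochondrial members lower, 10, was 6 with library size alone and with limma at either pseudocount, 5 with TPM and 4 at a mean FPKM of at least 5, and the number higher, 6, was 7 with library size alone and limma on FPKM, 10 with TPM and 4 at a mean FPKM of at least 5, so under these settings rises equalled or outnumbered falls. The median of all genes tested was 0.13 with library size alone and 0.23 with TPM, against 0.024, so relative to it the cytosolic medians were 0.71 and 0.73 and the mitochondrial ones -0.20 and -0.16.

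Leaving out one sample at a time, 16 to 17 cytosolic members were higher and 4 lower, with a median of 0.68 to 0.76. Of the mitochondrial members 6 to 7 were higher and 7 to 10 lower, with a median of -0.21 to -0.040, the latter without PBS replicate 1. Signs turned with TPM for QARS1 (0.028), TARS2 (0.048), VARS2 (0.062), GATB (0.043), GATC (0.0051) and PARS2 (0.19). PARS2 was also at 0.084 with library size alone and at 0.064 and 0.078 with limma at the larger and smaller pseudocount. Over the fits with one sample left out, EARS2 ran from -0.030 (without PBS replicate 3) to 0.068, and VARS2 from -0.36 to 0.053 (without PBS replicate 1). The median of the genes for mitochondrial tRNA processing, 0.069, was -0.16 at a mean FPKM of at least 5, and ran from -0.047 (without rhSema3C replicate 2) to 0.11 with one sample left out.

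Same-numbered PBS and rhSema3C samples did not deviate together (correlations of -0.077, -0.046 and -0.036), so the numbers were not taken as pairs. With the replicate block, the cytosolic and mitochondrial medians were 0.73 and -0.16, and TARS2 and GATB no longer passed. Counting every symbol ending in 2 as mitochondrial moved no gene, since the table lists TARSL2 as TARS3.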

Other observations

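Genes that meet the charged tRNA outside the synthetases were called in both directions, as were all genes tested (31.7% higher and 30.6% lower). Of 6 cytosolic elongation factors, EEF1A1, which delivers charged tRNAs to the ribosome, rose by 0.60 on the log2 scale and EEF1B2, a subunit of its exchange factor, by 0.46. EEF1A1 has many near-identical pseudogenes, so its counts are uncertain. EEF1D, another subunit of the exchange factor, fell by 0.31 and EEF1A2 by 0.18. The EEF1A2 call was lost without PBS replicate 1 or 2 or rhSema3C replicate 2 or 3, and without a filter. It was also lost with library size alone, with limma and at a mean FPKM of at least 5. EEF2 (0.030) and EEF1G (-0.10) were not called. With library size alone, with limma and at a mean FPKM of at least 5, 3 of the 6 factors were higher, against 2 in the main fit. Of 5 proofreading and recycling factors, DTD1, which removes D-amino acids from tRNAs, rose by 0.31, 1 other was lower and 3 were not called. Of 15 genes for the processing and modification of mitochondrial tRNAs, 5 were higher and 5 lower. TRIT1, which modifies tRNAs next to the anticodon, rose most (0.55), and HSD17B10, a subunit of mitochondrial RNase P, fell most (-0.64).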
